A study of Mus musculus with 12 samples.

Results

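Scavenger receptors are the surface proteins through which macrophages take up modified LDL, and 8 of their genes were followed across all libraries of this series of mouse peritoneal macrophages (PMφs). The members, Cd36, Msr1, Marco, Scarb1, Olr1, Cxcl16, Cd68 and Stab1, were chosen by name, and all 8 of 8 were found among the 43278 gene symbols of the deposited table. PMφs were taken by lavage on day 4 after an injection of 1 ml of 4% thioglycolate from C57BL/6J mice of 8 to 12 weeks, with the cells of male and female littermates (up to 10 mice per experiment) combined before each pool was split between the groups. There were 4 groups of 3 libraries: control PMφs (no oxLDL, no LPS), PMφs loaded with human medium oxidized LDL at 100 µg/ml for 24 h (oxLDL), PMφs given ultrapure LPS at 10 ng/ml (LPS), and PMφs given the oxLDL load and then LPS (oxLDL+LPS). All groups share the thioglycolate elicitation and a culture of 18 h before treatment, so none of them stands for untouched resident cells. The study's methods give LPS times of up to 6 h, and the time used for these libraries is not stated.

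Macrophages use scavenger receptors to clear oxidized or acetylated lipoproteins, bacteria and dying cells, and uptake through several of them is not shut off by the cholesterol the cell already holds, which is how foam cells form. Cd36 and Scarb1 are the class B receptors, with 2 membrane spans each, and bind oxidized phospholipids and, for Scarb1 (SR-BI), mainly HDL. Msr1 (SR-A) and Marco are trimeric class A receptors with a collagen-like stalk. Olr1 (LOX-1) is a C-type lectin for oxLDL, Cxcl16 (SR-PSOX) is a membrane-bound chemokine that also binds oxLDL, Cd68 is a heavily glycosylated protein of late endosomes and lysosomes, and Stab1 (stabilin-1) is a large endocytic receptor for acetylated LDL and matrix products.

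On the GRCm38 build, GENCODE places the 8 protein-coding genes on the minus strand. Cd36 lies at chr5:17781690-17888801, Scarb1 at chr5:125277087-125341094, Msr1 at chr8:39581685-39642673, Marco at chr1:120474538-120505024, Olr1 at chr6:129485244-129507165, Cxcl16 at chr11:70453983-70459984, Cd68 at chr11:69664213-69666153 and Stab1 at chr14:31139013-31168641. RefSeq promoter windows (GRCm38.p6), which run from 250 bases before to 50 bases after a gene's start, were held for 5 of the 8, Cd36, Marco, Olr1, Cd68 and Stab1. The windows of 4 are printed 5′ to 3′ on the gene's strand because these genes mark the extremes of the results. Olr1 and Marco rose most with LPS, Cd36 moved most with oxLDL, and Cd68 held its level. They are chr6:129507116-129507415 for Olr1, chr1:120504975-120505274 for Marco, chr5:17835847-17836146 for Cd36 and chr11:69666121-69666420 for Cd68. Capitals mark a match to the AP-1 motif TGANTCA or, on either strand, to AGGTCA, the core site of nuclear receptors such as PPARγ. The Cd36 window lies inside the span of the gene, and its start is that of RefSeq. A short stretch just after that start was found in no GENCODE transcript of Cd36, unlike the same stretch of Olr1, Marco and Cd68. Whether this start is used in PMφs was not tested.
Olr1: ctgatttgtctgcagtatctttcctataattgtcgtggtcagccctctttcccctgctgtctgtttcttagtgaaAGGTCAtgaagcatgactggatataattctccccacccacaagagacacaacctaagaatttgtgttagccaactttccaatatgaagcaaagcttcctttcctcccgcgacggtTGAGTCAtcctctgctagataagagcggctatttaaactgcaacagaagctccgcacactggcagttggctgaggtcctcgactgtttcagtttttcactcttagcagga
Marco: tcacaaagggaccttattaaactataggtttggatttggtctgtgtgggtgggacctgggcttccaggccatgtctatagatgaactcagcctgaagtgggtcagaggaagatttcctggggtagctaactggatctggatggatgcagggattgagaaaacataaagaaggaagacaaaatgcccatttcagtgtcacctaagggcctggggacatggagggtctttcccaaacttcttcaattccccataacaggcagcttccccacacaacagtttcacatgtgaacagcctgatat
Cd36: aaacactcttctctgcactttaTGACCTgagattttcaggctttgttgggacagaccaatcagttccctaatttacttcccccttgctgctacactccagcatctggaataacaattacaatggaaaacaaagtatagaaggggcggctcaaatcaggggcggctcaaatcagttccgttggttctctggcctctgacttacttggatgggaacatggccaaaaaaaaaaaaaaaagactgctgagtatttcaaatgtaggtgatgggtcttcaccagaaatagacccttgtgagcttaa
Cd68: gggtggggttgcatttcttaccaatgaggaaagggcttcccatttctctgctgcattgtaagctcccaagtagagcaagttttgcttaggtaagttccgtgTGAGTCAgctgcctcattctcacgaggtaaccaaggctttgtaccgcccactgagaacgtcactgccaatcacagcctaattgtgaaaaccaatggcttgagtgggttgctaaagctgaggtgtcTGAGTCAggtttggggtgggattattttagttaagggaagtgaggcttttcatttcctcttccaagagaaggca

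The Olr1 window holds TGAGTCA at −60 to −54 from the start and AGGTCA at −175 to −170. The Cd68 window holds TGAGTCA at −149 to −143 and again at −24 to −18, and the Cd36 window holds the core site on its other strand (TGACCT) at −228 to −223. No motif searched was matched in the Marco and Stab1 windows. TGANTCA was matched on either strand in 7.8% of 32851 RefSeq promoters of the same length, and AGGTCA in 16.3%. No member window held the antioxidant response element TGACNNNGC (12.4% of promoters), the PU.1 motif GAGGAAGT (3.2%), the sterol element TCACNCCAC (1.2%), the NF-kB consensus (8.5%) or the PPAR-RXR direct repeat 1 (0.6%). An AP-1 match was thus shared by Olr1 and Cd68, of which the first rose strongly with LPS and the second did not, and the matches are a description of these letters only.

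The deposited values, called normalized counts here, are read counts that each library's own factor had scaled before rounding. The factors imply 16726586 to 26177459 reads on genes per library, which is deep enough that counting error is small for 6 of the members, while Marco and Olr1 stood below 100 normalized counts in all libraries without LPS. The normalized counts summed to 17152972 to 17709731 in the 6 libraries without LPS and to 22071853 to 26384551 in the 6 with LPS. All 8 macrophage markers of the list were present, and their summed normalized count lay between 186379 and 301406. Lyz2 alone made up most of it, at 157225 to 215646, and Aif1 was lowest, at 26 to 190. The 5 neutrophil markers summed to 34 to 37 in control, 31 to 49 in oxLDL, 74 to 178 in LPS and 121 to 249 in oxLDL+LPS libraries. Most of each sum was S100a8, and Ly6g was at 0 in every library. Mesothelial or fibroblast markers summed to 3309 to 19404, with the highest sum in replicate number 1 and the lowest in number 3 in each group. Replicate numbers pair the libraries, so limma fits with the number as a block are given where they change a call.

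Per kb of exon, Cd68 was the most abundant member in every group, with 36582 ± 769 (SD, n = 3) normalized counts per kb in control PMφs, and Cd36 came next with 10217 ± 1064. In control PMφs Cd68 took 76.1% and Cd36 21.2% of the summed level per kb of the 8 members, and they ranked 15 and 53 among 12804 genes. Msr1 followed at 482 ± 68.5, Cxcl16 at 384 ± 27.2, Scarb1 at 192 ± 17.5, Stab1 at 191 ± 39.5, Marco at 31.0 ± 6.92 and Olr1 at 16.8 ± 7.80 normalized counts per kb. Scarb1 and Stab1 overlapped in their ranges, and each of the other neighbours in this order was separated. Exonic length was summed over all annotated transcripts. With the longest transcript instead, Cd68, Cd36 and Msr1 were the first 3 in control PMφs too, and Scarb1 came ahead of Cxcl16.

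With LPS the order changed below Cd36. Cxcl16 (3183 ± 581 per kb) and Msr1 (2979 ± 449) had overlapping ranges, as had Marco (663 ± 333) and Olr1 (569 ± 364), and Scarb1 (109 ± 25.9) and Stab1 (100.2 ± 68.8) came last. In terms of rank among 12804 genes, Msr1 went from 1465 in control to 359 in LPS-treated PMφs, and Olr1 from 9801 to 1716. In oxLDL-loaded PMφs without LPS, Cd36 reached 19923 ± 5640 per kb and 35.3% of the members' sum, at rank 21. In oxLDL+LPS libraries Cd36 stood at 15376 ± 3306 per kb, ahead of Cxcl16 at 2487 ± 623 and Msr1 at 2312 ± 348, whose ranges overlapped. Marco and Olr1 overlapped there too, as did Stab1 and Scarb1. With the longest transcript instead, Msr1 came ahead of Cxcl16 in LPS (5198 against 3562 per kb) and in oxLDL+LPS libraries (4033 against 2784). Scarb1 then stood at 300 per kb in LPS and 286 in oxLDL+LPS libraries. On the means it was still below Olr1 (569 and 388).

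**Figure D1:**
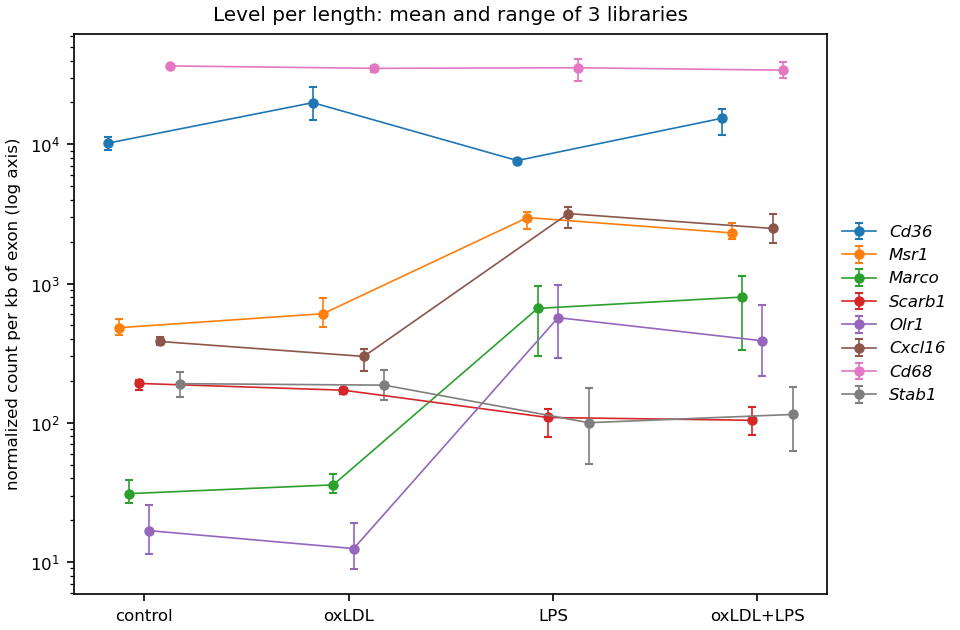
Normalized counts per kb of exon (log axis) of the 8 members in the 4 groups, as the mean (point) and range (bar) of 3 libraries, with lines joining the means of a gene. Cd68 stays on top in every group, Cd36 is highest in the oxLDL group at 19923 per kb, and Marco and Olr1 move from the bottom to above Scarb1 and Stab1 in both groups with LPS.

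The first comparison asks how LPS changed these receptors in PMφs without oxLDL. Of the 8 members, 4 rose (Msr1, Marco, Olr1 and Cxcl16), 3 fell (Cd36, Scarb1 and Stab1) and Cd68 did not pass the test. Called means a Benjamini-Hochberg adjusted p under 0.1 from limma over all 13023 genes tested, and by this rule 61.7% of those genes were called, 31.4% higher and 30.3% lower. The replicate block called the same 7 members, against 68.7% of genes. Groups did not overlap for 6 of the members (all but Cd68 and Stab1), against 63.2% of all genes. The median log2 difference of the members was 1.28, against −0.001 over all genes tested. With 4 members above 0 and 4 below, that median falls between Msr1 (2.62) and Cd68 (−0.06), and no member lay near it. In bulk RNA, fewer cells of a type and less RNA per cell cannot be told apart.

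Olr1, the lectin-like oxLDL receptor, gained most. Its normalized count was 41, 92 and 47 in control libraries 1, 2 and 3 and 1052, 3507 and 1541 in LPS libraries, so the lowest LPS value was above the highest control value by more than an order of magnitude, and number 2 was highest in both groups. The log2 difference was 4.96 (SE 0.46, adjusted p = 7.28e-05), a 31.2-fold rise, and only 1.63% of genes tested changed by more. Marco, the class A receptor of bacteria and particles, read 53, 75 and 51 in control and 1395, 585 and 1851 in LPS libraries. Here number 2 gained least, 2.95 on the log2 scale against 4.69 and 5.15 in numbers 1 and 3, and the difference was 4.26 (SE 0.40, adjusted p = 7.29e-05), or 19.2-fold. Number 2 was thus the highest LPS library for Olr1 and the lowest for Marco.

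Cxcl16, the chemokine that doubles as SR-PSOX, went from 1145, 1249 and 1087 in control to 7590, 10661 and 10593 in LPS libraries, with every LPS library far above every control. The log2 difference was 3.03 (SE 0.15, adjusted p = 2.34e-06), or 8.19-fold. Of its exonic bases, 18.3% overlap Zmynd15 on the opposite strand, and whether the counting used the strand is not stated, so that a part of its reads is not certain. Msr1, the class A receptor for acetylated and oxidized LDL, read 2896, 2729 and 3551 in control and 20707, 15617 and 20375 in LPS libraries. Its log2 difference was 2.62 (SE 0.15, adjusted p = 5.93e-06), or 6.17-fold, with gains between 2.52 and 2.84 in the 3 numbers.

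Cd36 went the other way. Its normalized count was 40346, 32725 and 36968 in control and 26396, 28348 and 27635 in LPS libraries, a narrow LPS group that lay wholly below the control group. The log2 difference was −0.41 (SE 0.13, adjusted p = 0.0290), a level 0.751 times that of control, and 59.1% of genes changed by more. The call was lost when control library 1 was left out (log2 difference −0.34, adjusted p = 0.116), and over the 6 libraries left out in turn the adjusted p ran from 0.0341 to 0.116. Scarb1, the HDL receptor, fell from 1735, 1460 and 1695 to 1074, 675 and 1036, again without overlap and with its lowest value in number 2. Its log2 difference was −0.84 (SE 0.18, adjusted p = 0.00576).

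Stab1 fell in 2 of the 3 replicate numbers. It read 1946, 1570 and 2381 in control and 1838, 519 and 735 in LPS libraries, so LPS library 1 stayed within the control range while libraries 2 and 3 lay far below it. Differences by number were −0.08, −1.60 and −1.69 on the log2 scale, and the fitted difference was −1.12 (SE 0.42, adjusted p = 0.0540). Without LPS library 1 the fitted difference was −1.65 (adjusted p = 0.00103), and the call was lost without LPS library 2 (−0.74, adjusted p = 0.146), LPS library 3 (−0.99, adjusted p = 0.147), control library 1 (−1.12, adjusted p = 0.114) or control library 3 (−0.98, adjusted p = 0.138). LPS library 1 also had the highest summed normalized count of the 6 mesothelial or fibroblast markers, 19404 against 8434 and 3610 in libraries 2 and 3. The 5 markers of resident large peritoneal macrophages summed to 2111 there against 1107 and 1241, and the 4 endothelial markers to 499 against 474 and 707, with Emcn at 0 in the group. Their part in the Stab1 result was not tested.

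Cd68 read 44895, 46738 and 46319 in control and 35765, 51371 and 46687 in LPS libraries, which enclose the control range. Its log2 difference was −0.06, with a 95% interval from −0.45 to 0.33 (adjusted p = 0.791). The LPS libraries hold more normalized counts in total. If every library is instead scaled to the same total, the median of all genes shifts to −0.48 in this comparison and to −0.40 in oxLDL-loaded cells, all 4 rises and 3 falls keep their direction and call, and Cd68 is called lower with a log2 difference of −0.54 (adjusted p = 0.0103). Over all genes that scaling calls 2210 higher and 7200 lower in place of 4093 and 3946. Relative to the median gene, Cd68 stood at about the same place under either scaling.

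**Figure D2:**
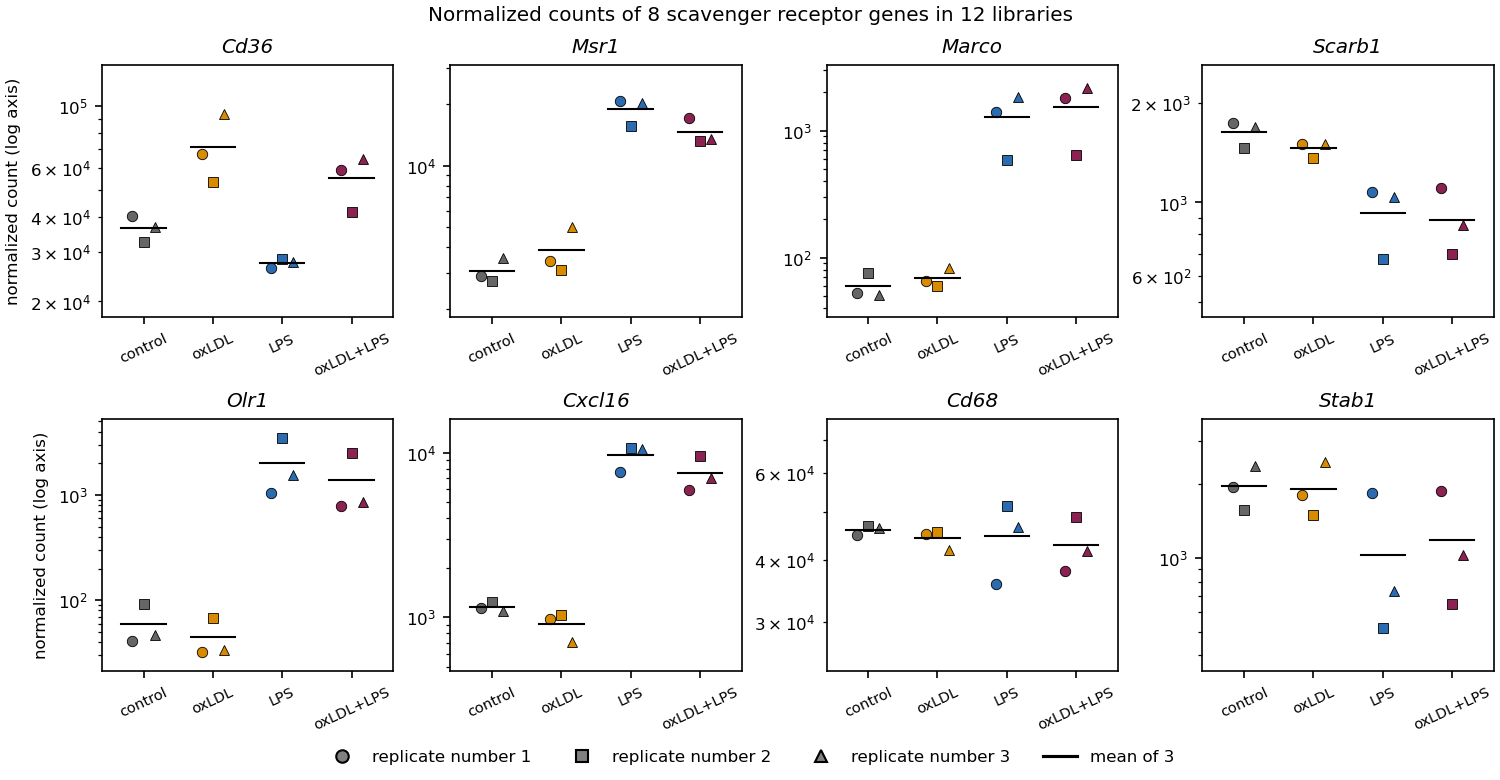
Normalized counts (log axes, a separate range for each gene) of the 8 members in each of the 12 libraries, with marker shapes for the replicate numbers and a line at the mean of 3. Msr1, Marco, Olr1 and Cxcl16 are higher in all 6 libraries with LPS than in all 6 without, Scarb1 is lower in all 6, Cd36 is higher in oxLDL libraries than in their LPS-matched counterparts without oxLDL, and Stab1 of number 1 does not follow numbers 2 and 3.

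The same LPS step was then measured in PMφs that had been loaded with oxLDL. Of the 8 members, 5 were called among 12900 genes tested, of which 54.5% were called (28.2% higher and 26.3% lower). Msr1, Marco, Olr1 and Cxcl16 rose and Scarb1 fell, and with the replicate block, which called 63.4% of all genes, Cd36 and Stab1 were called lower as well. Groups did not overlap for 5 of the 8 members, near the 57.6% of all genes. Scaled to the same total, the members split into 4 higher and 4 lower, with Cd36, Stab1 and Cd68 joining Scarb1, and all genes into 2055 higher and 6618 lower in place of 3633 and 3397.

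Olr1 went from 32, 68 and 34 in oxLDL libraries to 779, 2521 and 859 in oxLDL+LPS libraries, a log2 difference of 4.79 (SE 0.49, adjusted p = 0.000201). Marco went from 65, 60 and 82 to 1797, 640 and 2184, or by 4.29 (SE 0.43, adjusted p = 0.000187), and number 2 again gained least. Cxcl16 went from 978, 1029 and 711 to 5959, 9605 and 6979, a log2 difference of 3.04 (SE 0.21, adjusted p = 2.74e-05). These 3 rises were large against the spread of their groups, and for each the lowest library with LPS was above the highest without.

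Msr1 rose less here than in the cells without oxLDL, by values side by side. It read 3431, 3104 and 5028 in oxLDL and 17211, 13282 and 13502 in oxLDL+LPS libraries, a log2 difference of 1.95 (SE 0.20, adjusted p = 0.000188). Scarb1 went from 1507, 1368 and 1499 to 1106, 698 and 854, a difference of −0.74 (SE 0.16, adjusted p = 0.00772). Cd36 had 67666, 53483 and 93423 in oxLDL and 59206, 41849 and 64548 in oxLDL+LPS libraries, which overlap although each number was lower with LPS. Its log2 difference was −0.36, with adjusted p = 0.295 without and 0.0362 with the block. Stab1 read 1807, 1493 and 2455 and then 1871, 646 and 1029, with number 1 once more unmoved (0.05) and numbers 2 and 3 at −1.21 and −1.25. Its difference was −0.80, with adjusted p = 0.116 without and 0.0341 with the block, and 0.0124 without the block when oxLDL+LPS library 1 was left out. Cd68 ran from 41926 to 45614 in oxLDL and from 37937 to 48931 in oxLDL+LPS libraries, a log2 difference of −0.05 (95% interval −0.39 to 0.29).

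**Figure D3:**
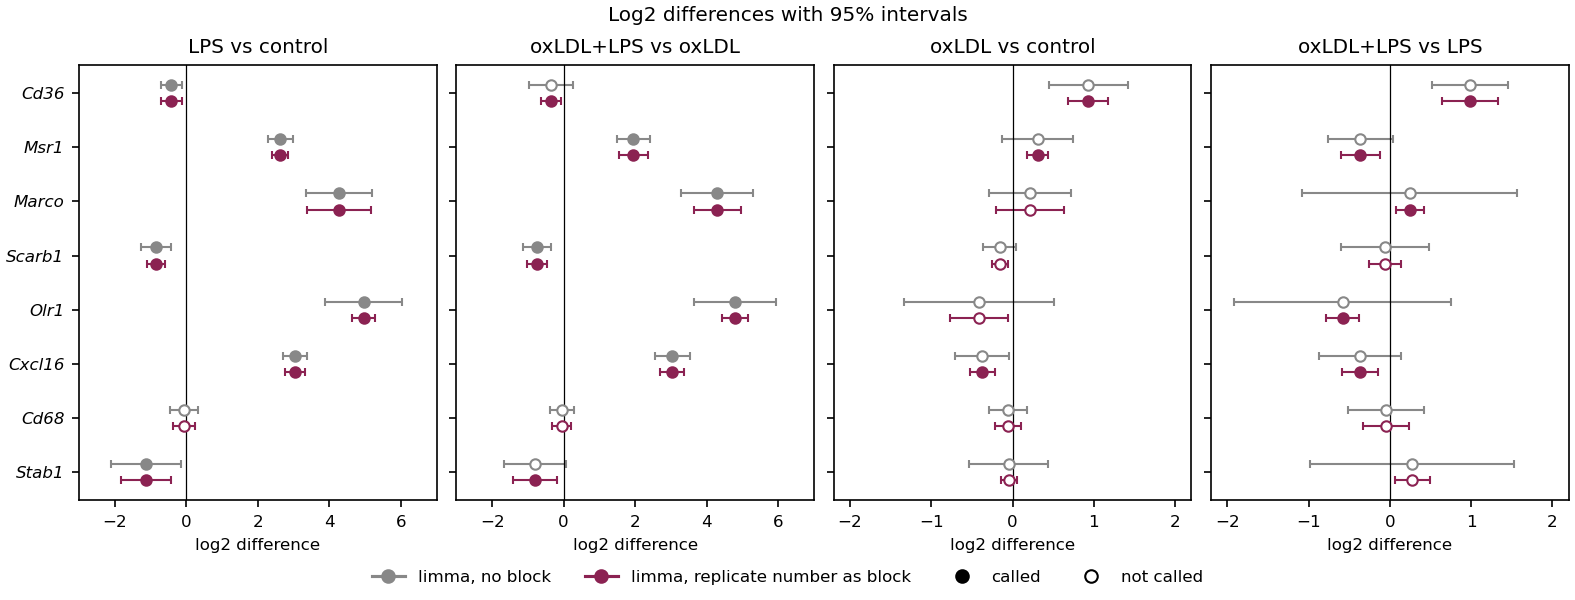
Log2 differences of the 8 members with 95% intervals in the comparisons of LPS (left pair of panels) and of oxLDL (right pair, a narrower axis), from limma without (grey) and with (dark red) the replicate number as a block, with filled points called at an adjusted p under 0.1. Olr1 reaches 4.96 and Marco 4.26 with LPS, Cd36 is near 1 with oxLDL in both panels, and the block narrows the intervals of the oxLDL comparisons without moving the points.

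The comparison of oxLDL with control asks whether loading itself changed the receptors. Without the block, 0 of the 8 members and 0% of 12751 genes were called by limma, while 381 genes had an unadjusted p under 0.05, Cd36 and Cxcl16 among them. With the replicate number as a block, 3 members were called, Cd36 and Msr1 higher and Cxcl16 lower, against 4.71% of all genes (1.8% higher and 2.92% lower). Groups did not overlap for Cd36 and Cxcl16, as for 7.7% of genes. An exact permutation test of 3 against 3 libraries cannot give a p below 0.1.

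Cd36 was the member that moved most. With the values already given, every oxLDL library lay above every control library, and the log2 difference of 0.93 (1.91-fold) had an SE of 0.21 without the block and 0.11 with it. Only 0.42% of genes tested changed by more, and the blocked adjusted p was 0.00180. Number 3 gained most, 1.34 against 0.75 and 0.71 in numbers 1 and 2. Msr1 gained 0.24, 0.19 and 0.50 in the 3 numbers, a small rise (log2 difference 0.31, blocked SE 0.06, blocked adjusted p = 0.0205) in groups that overlapped. Cxcl16 lost in each number, by −0.23, −0.28 and −0.61, and its oxLDL libraries were all below its control libraries. Its log2 difference was −0.37 (blocked SE 0.07, blocked adjusted p = 0.0195), and it lost the blocked call without number 2 (−0.42, adjusted p = 0.110). With 1 library left out of the fit without the block, Msr1 ran from 0.10 (without oxLDL library 3) to 0.45 (without oxLDL library 2) and Cxcl16 from −0.21 (without oxLDL library 3) to −0.47 (without oxLDL library 2).

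The other 5 members were not called in either fit. Olr1 was lower in each number, with a log2 difference of −0.41 at 32 to 92 normalized counts (blocked 95% interval −0.77 to −0.06, blocked adjusted p = 0.233). Scarb1 stood at −0.16 (blocked interval −0.26 to −0.06, blocked adjusted p = 0.107) and was also lower in each number. Marco had 0.22 (−0.20 to 0.63), Stab1 −0.05 (−0.15 to 0.06) and Cd68 −0.06 (−0.22 to 0.10), each given with its blocked 95% interval.

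In LPS-treated PMφs, oxLDL loading was compared with no loading. Again 0 of 8 members and 0% of 12786 genes were called without the block (890 genes had an unadjusted p under 0.05, Cd36 among them), and 5 members were called with it, against 13.2% of genes (4.42% higher and 8.74% lower). Cd36 and Marco were higher and Msr1, Olr1 and Cxcl16 lower in oxLDL+LPS than in LPS libraries. Groups were separate for Cd36 alone among the members, and for 12.6% of all genes.

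Cd36 differed by 0.98 on the log2 scale (1.98-fold), by 1.17, 0.56 and 1.22 in the 3 numbers, with a blocked adjusted p of 0.00984. The loaded libraries reached 41849 to 64548 against 26396 to 28348. Without the block, Cd36 was called when oxLDL+LPS library 2, its lowest loaded library, was left out (log2 difference 1.17, adjusted p = 0.0681). Olr1 was lower by −0.43, −0.48 and −0.84 in the 3 numbers, although number 2 remained the highest library of both groups and the groups overlapped. Its log2 difference was −0.58, with an SE of 0.56 without and 0.09 with the block (blocked adjusted p = 0.00991). With 1 library left out of the fit without the block, the difference of Olr1 ran from −0.10 (without LPS library 2) to −1.12 (without oxLDL+LPS library 2).

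Cxcl16 was lower by −0.35, −0.15 and −0.60 and had a fitted difference of −0.37 (blocked adjusted p = 0.0583). Msr1 was lower by −0.27, −0.23 and −0.59, a difference of −0.36 (blocked adjusted p = 0.0729). Marco was higher by 0.37, 0.13 and 0.24, a difference of 0.24 (blocked adjusted p = 0.0896). Without the block, the difference of Marco ran from −0.24 (without LPS library 2) to 0.79 (without oxLDL+LPS library 2) when 1 library was left out, with its sign changed in 2 of 6 cases, also without oxLDL+LPS library 3 (−0.10). With replicate number 1 left out of the blocked fit, Olr1 alone was called (adjusted p = 0.0980, Cd36 0.165), and with number 3 left out no member was (Cd36 0.365, Olr1 0.352). Stab1 was at 0.28 (blocked interval 0.06 to 0.49, blocked adjusted p = 0.113), Scarb1 at −0.06 (−0.26 to 0.14) and Cd68 at −0.05 (−0.34 to 0.24), none of them called.

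**Figure D4:**
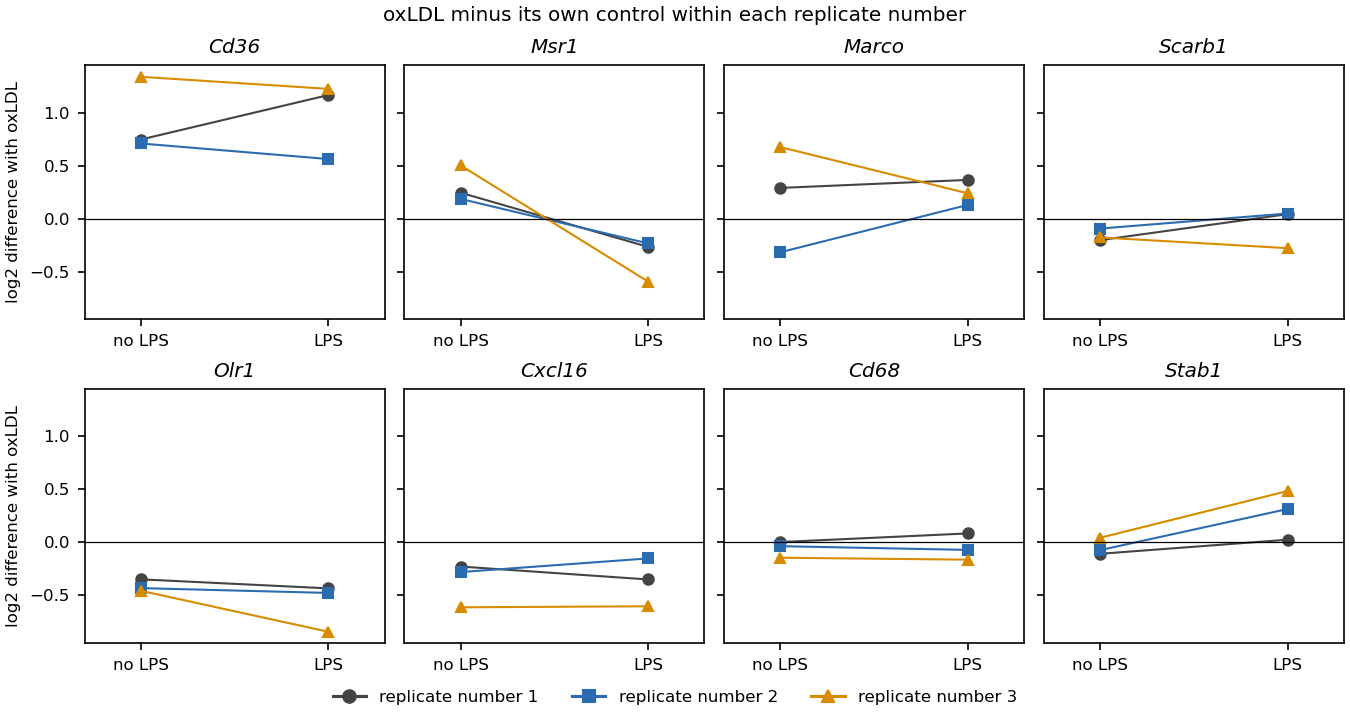
Log2 difference that goes with oxLDL within each replicate number, without LPS (oxLDL minus control) and with LPS (oxLDL+LPS minus LPS), 1 line per number. Cd36 is above 0 and Olr1 and Cxcl16 below 0 in all 6 pairs, whereas Msr1 lies above 0 in the 3 pairs without LPS and below 0 in the 3 pairs with LPS.

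Whether the oxLDL difference itself changed with LPS was tested as an interaction on all 12 libraries. No member and 0% of 13482 genes were called without the block (418 genes with an unadjusted p under 0.05), nor with the replicate number as a block (967 genes). Msr1 had the largest interaction of the 8, −0.68 on the log2 scale (95% interval −1.26 to −0.09, unadjusted p = 0.0270, adjusted p = 1.00), made of −0.51, −0.42 and −1.10 in the 3 numbers. With a block of the replicate number within each LPS state, an alternative chosen after the data were seen, the SE of Msr1 was 0.12 in place of 0.27 and its adjusted p was 0.0548, and 147 genes (1.09%) were called. For Cd36 the interaction was 0.05 (−0.60 to 0.70), so a similar gain with and without LPS was measured, but a difference of up to 0.70 is within the interval. Cxcl16 had 0.01 (−0.60 to 0.61) and Olr1 −0.17 (−1.84 to 1.49). These intervals are from the fit without the block, which leaves the pairing out. With the replicate number as a block they were −0.43 to 0.54 for Cd36, −0.46 to 0.47 for Cxcl16 and −0.63 to 0.28 for Olr1.

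For each member, the genes whose profile was most like it over the 12 libraries were ranked by Pearson correlation of log2 values after the mean of each replicate number was subtracted. The libraries share their group means, so the correlations mostly restate the 4 group levels and are given as a description. Cd36 was closest to Creg1, which encodes a lysosomal glycoprotein (r = 0.974), and to Cd5l, a secreted macrophage protein with scavenger domains (r = 0.969). These were the only 2 of 13482 genes above 0.95, and Cd5l averaged 1532, 2595, 1208 and 2209 in control, oxLDL, LPS and oxLDL+LPS libraries. Cd68 had 4 such genes, led by Psmd8 (0.968), a proteasome subunit, and Sun2 (0.962), and Stab1 had 36, led by Sh3d19 (0.993) and Mmp27 (0.980).

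The members that moved with LPS had many near profiles. Cxcl16 had 2193 genes above 0.95, led by Ccrl2 (1.00), an atypical chemoattractant receptor, and Cd14 (0.999), the LPS co-receptor. Olr1 had 2232, led by Gm5431 and Azi2 (both 0.999), Msr1 had 1818, led by Fsd1l (0.995) and Notch1 (0.994), Marco had 1421, led by Map3k5 (0.995) and Csrp2 (0.994), and Scarb1 had 676, led by Tnfsf13 (0.995) and Plxnb2 (0.992).

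Of 17 other scavenger receptor genes, 13 were tested in LPS against control. Scarf1, Cd44 and Scarb2 rose and 5 fell, so 8 of 13 were called, against 61.7% of all genes in that comparison. Scarf1, a receptor for acetylated LDL, went from 301, 252 and 310 to 1728, 1558 and 2039 normalized counts, a log2 difference of 2.62 (SE 0.13, adjusted p = 3.34e-06) close to that of Msr1. Cd44, the hyaluronan receptor, differed by 1.49 and Scarb2, a lysosomal class B relative of Cd36, by 0.35. Among those that fell, Stab2, the paralogue of Stab1, differed by −2.32 at 24 to 42 normalized counts in control and 5 to 6 in LPS libraries, Lrp1 by −1.17 and Colec12 by −0.73. The median log2 difference of the 13 was −0.15. Scaled to the same total, 2 were called higher, without Scarb2, and 6 lower.

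In loaded cells, LPS raised Scarf1 and Cd44 and lowered 6 of the 13 (9 when scaled to the same total). Without that scaling, 54.5% of all genes were called in this comparison. The falls with the smallest p were those of Lrp1 (−0.99), Colec12 (−0.78) and Clec7a (−0.77), and the largest, named after their values were seen, were those of Cd163 (−1.61, adjusted p = 0.0625) and Stab2 (−1.29, adjusted p = 0.0648), at 2 to 25 and 5 to 31 normalized counts in these 6 libraries. With oxLDL and no block, 0 of them were called in either LPS state. With the block, Scarb2 was higher in oxLDL than in control PMφs (log2 difference 0.18, adjusted p = 0.0499), and Cd44 (−0.48, adjusted p = 0.0240) and Scara3 (−0.84 at 21 to 113 normalized counts, adjusted p = 0.0836) were lower in oxLDL+LPS than in LPS libraries, where 10 of the 17 were tested. Over all genes the block called 4.71% in the first comparison and 13.2% in the second.

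Partners of the receptors, such as signalling kinases, co-receptors and sheddases, were called in 15 of 17 tested genes with LPS, 12 higher and 3 lower (10 and 5 when scaled to the same total), in a comparison that called 61.7% of all genes. Tlr2, which signals beside Cd36, went from 419, 583 and 456 to 10826, 27016 and 19967 normalized counts (log2 difference 5.22, SE 0.31), and the Src-family kinases Src (3.44) and Lyn (2.21) rose too. Adam10, which sheds Cxcl16 from the surface, fell by 0.82 on the log2 scale (log2 difference −0.82), as did Vav3 (−0.38) and Tlr4 (−0.34). In loaded cells the same test called 12 higher and 1 lower, Adam10 (−0.67), against 54.5% of all genes. Scaled to the same total, the partners split into 9 and 5. With oxLDL alone, the block called Src (−0.34, adjusted p = 0.0187), Tlr2 (−0.30, adjusted p = 0.0763) and Tlr4 (−0.18, adjusted p = 0.0830) lower, and no partner was called in oxLDL+LPS against LPS (0 of 17 in both fits). The blocked shares over all genes were 4.71% and 13.2%, in that order.

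Of 16 transcription factors listed as possible regulators of these receptors (their action was not tested), 9 rose and 6 fell with LPS. Over all genes that comparison called 61.7%, 31.4% higher and 30.3% lower. Pparg, the nuclear receptor that drives Cd36, went from 1232, 1230 and 1284 in control to 81, 123 and 109 in LPS libraries, a log2 difference of −3.59 (SE 0.16, adjusted p = 1.63e-06), far beyond the −0.41 of Cd36 itself. Cebpa (−3.15) fell likewise, and Nfkb1 (3.22) and Cebpb (2.01) rose. In loaded cells the counts were again 9 and 6, against 54.5% of all genes called, with Pparg at −3.38. Pparg read 1193, 1227 and 997 in oxLDL libraries and 109, 112 and 103 in oxLDL+LPS libraries, and it was called in neither comparison of oxLDL, in which Cd36 was at 1.91 and 1.98 times its level. These are RNA levels, and a part of Pparg in the Cd36 values was not tested.

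With the block, oxLDL went with lower Srebf2, a regulator of cholesterol synthesis, both without LPS (−0.60, adjusted p = 0.00106) and with it (−0.68, adjusted p = 0.00615). Fos was higher in both (0.66, adjusted p = 0.00576, and 0.81, adjusted p = 0.0387). With LPS, oxLDL also went with higher Cebpa, which read 852, 770 and 581 in LPS and 1901, 1072 and 1749 in oxLDL+LPS libraries (log2 difference 1.07, blocked adjusted p = 0.00962), with higher Rxra (0.40), and with lower Nfkb1 (−0.38, adjusted p = 0.0721). Without the block none of the 16 was called in either comparison of oxLDL. The block called 2 of them without LPS, against 4.71% of all genes, and 6 with LPS, against 13.2%.

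**Figure D5:**
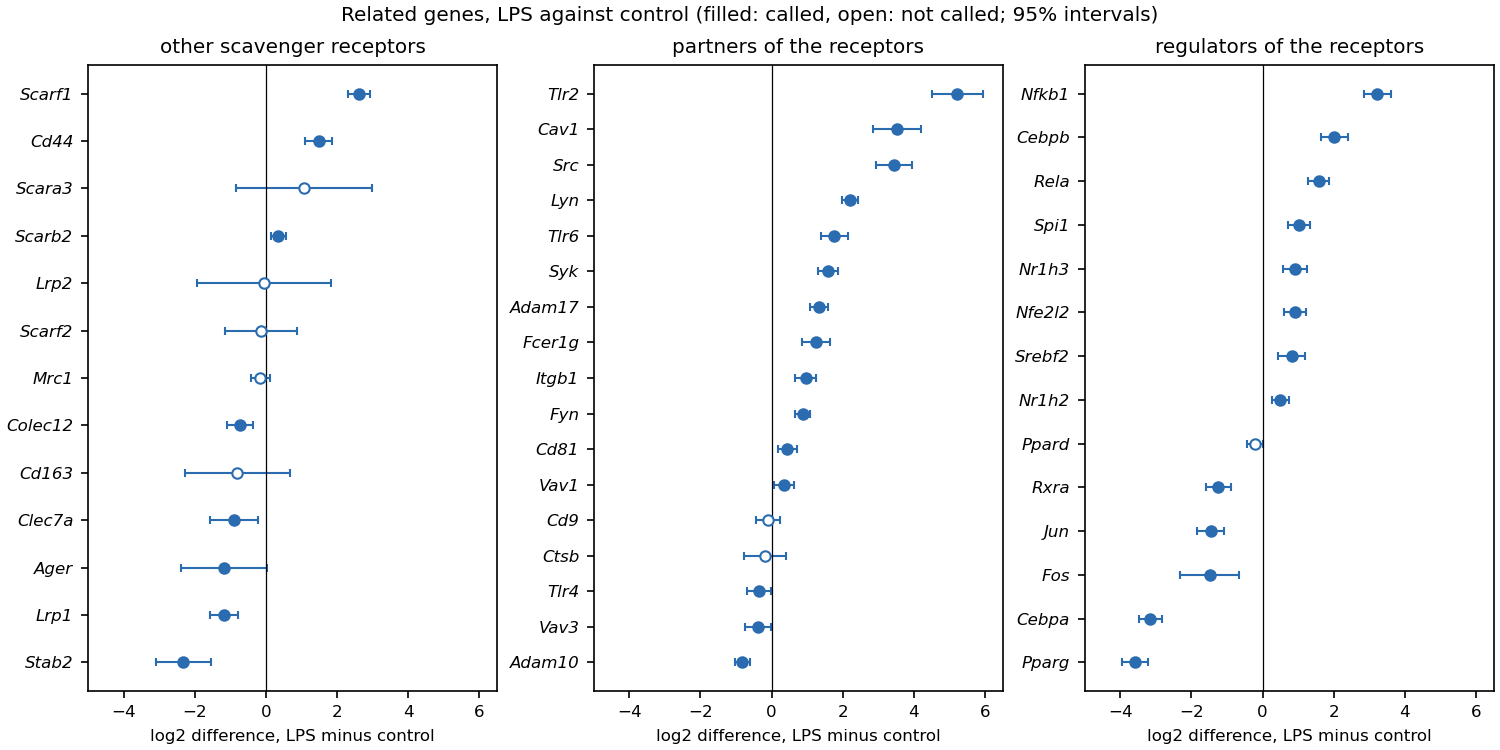
Log2 difference between LPS and control with 95% intervals for genes tested in 3 fixed lists (14 of the 16 transcription factors are shown), each ordered by its difference, with filled points called at an adjusted p under 0.1. Tlr2 (5.22), Nfkb1 (3.22) and Scarf1 (2.62) stand at the top of their panels, and Stab2 (−2.32), Adam10 (−0.82) and Pparg (−3.59) stand at the other ends.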

How the data were processed

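Poly(A) RNA of 12 PMφ cultures was sequenced from directional libraries. The authors removed adaptors (Trimmomatic 0.32), aligned to mm10 (STAR 2.5.1b), counted reads on GENCODE exons (featureCounts) and tested with DESeq2. The strand setting of the counting is not given in the sources used here. The deposited signal, per the spacing of its values, is those counts scaled by a factor of each library and then rounded, so no model for raw counts was used. Implied reads per library were 16726586 to 26177459. Squared differences between replicate libraries averaged 15.4 to 92.6 times the variance of counting noise over genes. That variance was taken as the sum of both normalized counts.

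Groups were taken from the titles in the labels. Comparisons used limma 3.58.1 in R 4.3.3 (lmFit and eBayes with a variance trend) on log2(normalized count + 1), a pseudocount of 1, so differences of genes with low values are understated. Genes that reached 10 in 3 or more libraries of the fit were tested, all 8 members passed in every comparison, and p-values were adjusted over all genes tested by the Benjamini-Hochberg method with a threshold of 0.1. Folds are 2 to the power of the log2 difference. The fits used the 6 libraries compared, and 12 for the interaction. The code was tested on simulated data with known changes.

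Labels give the 4 groups the same replicate numbers, and the study's methods describe pools split between groups. Deviations from the group means correlated between same-numbered libraries by 0.266 to 0.657 over 13482 genes. In each comparison between groups, every library of the first-named group correlated best with its own number in the other group. The match was not sought in the other direction. The numbers were therefore taken to pair the libraries. The study states no block, and the fit without it is the main one, although it leaves the pairing out. P-values without the block measure the spread between 3 pools. With the block they measure how far the differences within a pool vary over the 3 pools.

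Exonic lengths, positions and overlaps came from GENCODE vM21, a later release than the authors counted with, and promoters from RefSeq. Cells of other types were looked for with 10 marker lists. T cell markers summed to at most 27, eosinophil markers to at most 3, B cell markers to 151 to 332, neutrophil markers to 31 to 249, dendritic cell markers to 22 to 134 and mast cell markers to 31 to 109 normalized counts. Adgre1 appears in the table under its older symbol, Emr1. A spreadsheet had turned 25 symbols into dates, which were left out. All members were named. From each other list, up to 3 genes per direction with the smallest p among those called were named, and per member the 2 genes of the most similar profile. Some genes that fall under this rule are counted but not reported here. The members and lists were chosen with earlier results of these data known. Alternatives were the replicate block, pseudocount, filter, rescaling, 1 fit over all libraries, no variance trend and each library left out.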

Additional observations from a re-analysis of the deposited data

Results flagged for a closer look

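Among the 8 members and the 13 other scavenger receptor genes tested, Msr1 was the gene that moved one way with oxLDL in all replicate numbers without LPS and the other way in all of them with LPS. It was higher with oxLDL in 3 of 3 numbers without LPS and lower in 3 of 3 with LPS, and the difference between both was −0.68 on the log2 scale. The interaction did not pass the adjusted threshold in limma without a block (adjusted p = 1.00) or with the replicate number as a block (SE 0.19, adjusted p = 0.657). It passed when the block was taken within each LPS state (adjusted p = 0.0548), an alternative chosen after the data were seen. Its adjusted p ran from 0.0548 to 1 over 24 alternatives, its sign changed in 0 of them, and its value ran from −0.82 to −0.47.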

How the results depend on the processing

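No member called in the main fit, without the block, changed its direction under any alternative. Marco in oxLDL+LPS against LPS, called higher with the block, changed its sign in 2 of 18 alternatives. The replicate block mattered most. With it, 3 members were called in oxLDL against control in place of 0 and 5 in oxLDL+LPS against LPS in place of 0, and other scavenger receptor genes called went from 0 to 1 and from 0 to 2. With the block and 1 replicate number left out, members called ran from 2 to 4 in oxLDL against control and from 0 to 6 in oxLDL+LPS against LPS, and other scavenger receptor genes from 0 to 3 in both. Such fits hold few libraries, and their adjusted p could be extreme (1.99e-104 for Cd36 in oxLDL against control without number 3). The share of all genes they called was not counted, so these counts are a description only. Without the block and with 1 library left out, members called in oxLDL+LPS against LPS ran from 0 to 1 (1, Cd36, without oxLDL+LPS replicate 2), and other scavenger receptor genes in oxLDL+LPS against oxLDL from 5 to 8 (5 without oxLDL replicate 2, oxLDL replicate 3 or oxLDL+LPS replicate 3, and 5 with the block and without number 3). Scaling to the same total called 8 members in place of 5 in oxLDL+LPS against oxLDL, 4 higher and 4 lower in place of 4 and 1. The block within each LPS state, chosen after the data were seen, called 1 member (Msr1) and 1 other scavenger receptor gene (Cd44, −0.47, adjusted p = 0.0707) for the interaction, in place of 0. The block also called Cd36 and Stab1 lower in oxLDL+LPS against oxLDL, and no member lost a call with it. In LPS against control, members called stayed between 5 and 8 under all alternatives. The falls of Cd36 and Stab1 lost their call in 3 and 4 of 18 alternatives. Marco and Olr1 have the fewest counts without LPS, and how far depth limits their differences was not tested. The cause of these changes was not tested.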
